A study of Mus musculus with 4 samples.

Results

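The immune checkpoint ligands and costimulatory molecules of tumor-associated macrophages (TAMs) were described from the 10 genes *Cd274*, *Pdcd1lg2*, *Cd80*, *Cd86*, *Cd276*, *Icosl*, *Vsir*, *Havcr2*, *Lgals9* and *Sirpa*, each matched by its Ensembl identifier among the 54532 genes of the count table. All 10 were present in the table and all 10 passed the filter on low counts. The libraries are described as TAMs of tumors grown from NB9464 cells, a murine neuroblastoma line driven by *MYCN*. Mice on the C57BL/6 background, 4 to 6 weeks old, received the cells, were given no drug, and had their tumors removed on day 40. One group, labelled Syk KO (libraries M9 and M10), carried floxed *Syk* with Cre recombinase driven by the lysozyme M gene, which is active across myeloid cells and not in macrophages alone. The other, labelled Syk WT (libraries M7 and M8), was the wild type control of that strain, implanted and collected in the same way. TAMs were taken with magnetic beads against CD11b and F4/80, a positive selection that leaves other cells behind to an unknown degree, and how many mice stand behind each library was not given. The labels also name bone marrow derived macrophages (BMDMs) as the RNA source and an adoptive transfer, so the origin of the RNA was not settled by the labels.

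The proteins of these genes set the second signal that a T cell receives beside its antigen receptor. CD80 and CD86 on antigen-presenting cells bind CD28, which activates, or CTLA-4, which restrains. PD-L1 and PD-L2, VISTA and galectin-9 restrain T cells, ICOS ligand sustains them, and SIRP alpha on macrophages reads the "do not eat me" signal CD47 on other cells and limits phagocytosis.

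Total counts lay between 20755886 and 23518045 per library, and the floor of 3 counts corresponded to 0.109 to 0.163 CPM (read counts relative to the TMM-normalized library), a limit that covers counting error only. *Syk* itself was counted 765 and 569 times in M7 and M8 and 4033 and 2944 times in M9 and M10. These raw counts go against the labels, so every direction below is that of the libraries as labelled. Per 100 counts of the mean of 10 macrophage markers *Syk* had 32.5, 39.0, 31.0 and 40.2 counts in M7 to M10, with overlap between the groups. Per 100 counts of the mean of 6 pan-leukocyte genes *Syk* had 64.4, 68.5, 34.6 and 40.2, lower in both libraries labelled Syk KO. *Lyz2*, the lysozyme M gene whose promoter drives Cre, had 8109, 5115, 178 and 371 counts, lower in M9 and M10. Per 100 counts of the mean macrophage marker *Lyz2* had 345, 351, 1.37 and 5.06. Its adjacent near copy *Lyz1* had 27, 23, 6994 and 4307 counts, so *Lyz2* and *Lyz1* moved in opposite directions between the groups. How reads shared by both genes were divided was not stated, and the part of that division in these counts was not tested. Of all genes tested, 22.7% were called higher and 16.7% lower in the libraries labelled Syk KO (quasi-likelihood test of edgeR, adjusted p under 0.05). The 10 macrophage markers (*Adgre1*, *Csf1r*, *Cd68*, *C1qa* and others) were present in every library and 10 of 10 were higher in those labelled Syk KO. Their summed level was 1135 and 803 CPM in M7 and M8 against 9531 and 5702 CPM in M9 and M10. The summed level of 8 fibroblast markers was 12549 and 14444 CPM against 4060 and 4959 CPM, with 5 of 8 lower, and *Th* and *Dbh* of 6 neuroblastoma markers had 0 counts in every library, *Phox2a* was too low to test, *Hand2* was not called (-0.28) and *Mycn* was higher (0.74, adjusted p = 0.041, but 0.15 without M7 and 0.22 without M8). Mitochondrial genes took 2.20% and 2.34% of counts in M7 and M8 and 6.00% and 15.9% in M9 and M10. This share was thus higher in both libraries labelled Syk KO, as were 9 of the 10 genes. With mitochondrial and ribosomal-RNA-like genes left out before scaling and testing, the median log2 fold change was 2.79 over the 10 and -0.07 over all genes. The part of the mitochondrial share in the levels of the 10 genes was not tested. In bulk samples, fewer cells of a type and less RNA per cell cannot be told apart.

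Promoter sequence was drawn from RefSeq on GRCm38.p6, where 8 of the 10 genes had an entry (*Cd86* and *Sirpa* had none), and the 250 bases before each start were searched on both strands. The 4 stretches shown are those of *Cd274*, which lies head to head with another gene, of its neighbour *Pdcd1lg2*, which had the largest fold change of the 10, of *Vsir*, which had the smallest adjusted p, and of *Havcr2*, the receptor gene among the 8. All read 5′ to 3′ on the plus strand up to the base before the start, and capitals mark the motifs found. For *Cd274* the 47 bases outside any annotated exon are given, since most of the rest of its window lies in annotated exons.
Cd274, chr19:29367391-29367437: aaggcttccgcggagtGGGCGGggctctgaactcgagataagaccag
Pdcd1lg2, chr19:29410669-29410918: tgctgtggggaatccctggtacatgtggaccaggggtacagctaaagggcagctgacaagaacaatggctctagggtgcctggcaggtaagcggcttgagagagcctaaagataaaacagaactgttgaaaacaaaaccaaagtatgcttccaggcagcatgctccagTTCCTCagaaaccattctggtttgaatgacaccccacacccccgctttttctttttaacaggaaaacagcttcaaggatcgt
Vsir, chr10:60346601-60346850: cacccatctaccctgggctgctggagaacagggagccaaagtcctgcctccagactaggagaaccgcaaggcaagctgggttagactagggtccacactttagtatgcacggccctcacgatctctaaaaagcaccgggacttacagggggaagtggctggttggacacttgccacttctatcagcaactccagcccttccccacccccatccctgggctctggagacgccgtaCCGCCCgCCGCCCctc
Havcr2, chr11:46454681-46454930: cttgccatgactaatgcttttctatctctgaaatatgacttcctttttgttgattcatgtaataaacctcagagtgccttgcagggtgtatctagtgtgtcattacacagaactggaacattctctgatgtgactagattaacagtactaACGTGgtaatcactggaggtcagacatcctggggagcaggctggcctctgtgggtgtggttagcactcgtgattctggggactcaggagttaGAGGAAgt

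The capitals in the *Cd274* stretch are a GC box (GGGCGG) whose first base lay 31 bases before the start. *Vsir* held the same motif on the other strand at 16 and 9 bases, and *Cd276* and *Icosl* held it too. All 250 bases of the *Cd276* window, 66 of that of *Icosl* and 22 of that of *Lgals9* lie in annotated exons. A GC box was found in 32.7% of all 32851 windows of this length. The core of sites for PU.1, the myeloid master regulator (GAGGAA), was found at 82 bases before the start of *Pdcd1lg2* and 8 bases before that of *Havcr2*, in *Cd276* and *Lgals9* as well, and in 23.3% of all windows. The core of a hypoxia response element (ACGTG) was found at 100 bases in *Havcr2*, against 16.6% of all windows. An interferon-stimulated response element (GAAA, 2 bases of any kind and GAAA, in 2.98% of windows) was found only in *Lgals9* among the 8 windows, at 55 bases. A gamma-activated site (TTCNNNGAA, 7.02%), an NF-kB site (GGG, 2 bases of any kind and TTTCC, in 1.41%) and a TATA box (TATAAA, 12.4%) were found in none of the 8, and the window of *Cd80* held none of the 7 motifs. In these windows no motif overlapped another, and a match is a description of letters and not of binding.

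Of the 10 genes, 8 had risen in M9 and M10, labelled Syk KO, at an adjusted p under 0.05 (quasi-likelihood test of edgeR, Benjamini-Hochberg), where 22.7% of the 16451 genes tested were called higher. None was called lower, where 16.7% of all genes were (0 of 10 also at an unadjusted p under 0.05 and by DESeq2). *Pdcd1lg2*, *Cd80* and *Vsir* rose most, by 25.0-fold, 11.2-fold and 10.3-fold, while *Cd276* was level and *Icosl* did not pass the threshold. In 9 of the 10 both libraries labelled Syk KO lay above both labelled Syk WT, against 38.0% of all genes. The median log2 fold change was 2.88 over the 10 and 0.016 over all genes. With 2 libraries in each group the smallest p of an exact permutation test is 0.333, and the adjusted p-values draw on the spread shared across all genes. With a library left out, its group held a single library and the spread between replicates came from the other group alone. A call lost or gained in that way thus does not show that it rested on the library left out.

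**Figure D1:**
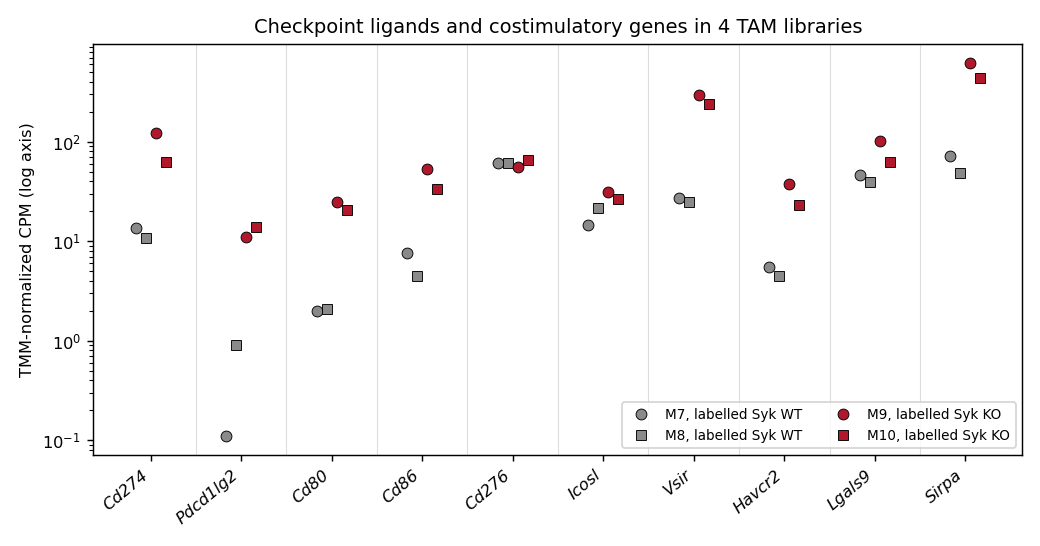
TMM-normalized CPM of the 10 genes on a log axis, 1 point per library, with grey for libraries labelled Syk WT (M7, M8) and red for those labelled Syk KO (M9, M10). The red points lie above the grey ones for 9 genes and on both sides of them for *Cd276*, which ran from 55.9 to 65.2 CPM.

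The ligands of PD-1 were both higher. *Cd274* (ENSMUSG00000016496, mm10 chr19:29367455-29388095, plus strand) encodes PD-L1, which binds PD-1 on T cells and restrains them. It stood at 13.5 CPM in M7 and 10.7 CPM in M8, and at 121 CPM in M9 and 62.4 CPM in M10. The groups did not overlap, and M9 and M10 lay further apart than M7 and M8. Its log2 fold change was 2.92 ± 0.34 (SE, 2 libraries per group), with an adjusted p of 0.0020 by edgeR.

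*Pdcd1lg2* (ENSMUSG00000016498, chr19:29410919-29471161, plus strand) encodes PD-L2, the second ligand of PD-1, whose expression is more restricted to antigen-presenting cells. It had 3 and 22 counts in M7 and M8 and 228 and 254 in M9 and M10, or 0.11, 0.90, 11.1 and 13.8 CPM. M7 thus sat at the floor of 3 counts, and the fold change leaned on M8. The log2 fold change was 4.64 ± 0.77 (adjusted p = 0.0060, edgeR), 3.79 without M7 and 6.75 without M8.

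On chromosome 19 both genes lie in tandem, 22823 bases apart. *Plgrkt*, a plasminogen receptor gene on the opposite strand, ends 64 bases before *Cd274*, so the 47 bases printed above fall in the gap between both gene starts. Its level was 26.4, 26.2, 49.1 and 38.3 CPM in M7 to M10, a log2 fold change of 0.73 (adjusted p = 0.022, but 0.14 without M7 and 0.17 without M8). On the other side, 51120 bases beyond *Pdcd1lg2*, *Ric1* fell by 0.89 on the log2 scale (adjusted p = 0.0093, but 0.105 without M8). *Cd274* and *Pdcd1lg2* thus had log2 fold changes of 2.92 and 4.64 between neighbours at 0.73 and -0.89.

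The ligands shared by CD28 and CTLA-4 were both higher as well. *Cd80* (ENSMUSG00000075122, chr16:38455561-38496335, plus strand) encodes B7-1, which binds CTLA-4 more tightly than CD28. It was measured at 1.97 CPM in M7, 2.08 CPM in M8, 24.8 CPM in M9 and 20.7 CPM in M10. Within each group the libraries were close, and the groups lay far apart. The log2 fold change was 3.49 ± 0.26, with an adjusted p of 0.00073.

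*Cd86* (ENSMUSG00000022901, chr16:36603869-36666081, minus strand) encodes B7-2, the ligand that most antigen-presenting cells carry before they induce B7-1. Its levels were 7.62 CPM in M7, 4.44 CPM in M8, 53.5 CPM in M9 and 33.1 CPM in M10. The groups did not overlap. *Cd86* rose by 2.84 ± 0.35 on the log2 scale (adjusted p = 0.0024). The genes beside *Cd80* moved less, with *Adprh* at 0.31 (adjusted p = 0.16, but 0.039 without M10) and *Timmdc1* at 0.75 (adjusted p = 0.026, but 0.22 without M7 and 0.17 without M8), while *Casr* and *Ildr1* beside *Cd86* were too low to test.

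The other B7 family genes differed from one another. *Vsir* (ENSMUSG00000020101, chr10:60346851-60372684, plus strand) encodes VISTA, a restraining protein of myeloid cells. It stood at 27.3 CPM in M7, 24.7 CPM in M8, 297 CPM in M9 and 239 CPM in M10. These groups were wide apart relative to their spread, and the log2 fold change of 3.37 ± 0.19 had an adjusted p of 0.00049. Its upstream neighbour *Psap*, a lysosomal prosaposin gene, rose by 1.14 (adjusted p = 0.023, but 0.075 without M7 and 0.099 without M8).

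*Icosl* (ENSMUSG00000000732, chr10:78069302-78083913, plus strand), the gene of the ICOS ligand, was at 14.4 CPM in M7, 21.3 CPM in M8, 31.2 CPM in M9 and 26.7 CPM in M10. Both libraries labelled Syk KO lay above both others, but the gap between M8 and M10 was smaller than the gap between M7 and M8. The log2 fold change was 0.70 ± 0.24 with an adjusted p of 0.060, past the threshold by neither edgeR with its filter nor DESeq2 (adjusted p = 0.089). It passed by edgeR with all genes of at least 1 count kept (0.69, adjusted p = 0.017), and was 0.82 without M10. Its neighbours *Dnmt3l* and *D10Jhu81e* had -0.32 (adjusted p = 0.76, but -1.79 with 0.021 without M9) and 0.62 (adjusted p = 0.024, but 0.13 without M7 and 0.29 without M8).

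*Cd276* (ENSMUSG00000035914, chr9:58524298-58555437, minus strand) encodes B7-H3, which many tumor and stromal cells carry. Its levels were 61.2 CPM in M7, 60.5 CPM in M8, 55.9 CPM in M9 and 65.2 CPM in M10. The lowest and the highest library were both labelled Syk KO, and both others lay between them. The log2 fold change was -0.01 ± 0.16 (adjusted p = 0.97). With library size in place of TMM it was -0.55 (adjusted p = 0.037), where 32.9% of all genes were called lower and the median of all genes was -0.52. The neighbour *Nptn* rose by 0.75 (adjusted p = 0.014, but 0.18 without M7 and 0.103 without M8) and *Insyn1* had a log2 fold change of -0.42 (adjusted p = 0.17).

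*Havcr2* (ENSMUSG00000020399, chr11:46454935-46481255, plus strand) encodes TIM-3, a restraining receptor of exhausted T cells that macrophages and dendritic cells carry too. It was found at 5.43 CPM in M7, 4.48 CPM in M8, 37.6 CPM in M9 and 23.3 CPM in M10. The groups did not overlap, and the log2 fold change was 2.62 ± 0.30 (adjusted p = 0.0019). Of the TIM family paralogs, *Timd2* had 0 counts in every library, *Havcr1* had 0, 0, 4 and 2 counts, and *Timd4* had 4, 0, 40 and 5, so none was tested. *Havcr2* therefore made up most counts of its family in every library. *Med7*, the gene upstream, had a log2 fold change of 0.41 (adjusted p = 0.25, but 0.71 with 0.0051 without M10).

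*Lgals9* (ENSMUSG00000001123, chr11:78962974-78984946, minus strand) encodes galectin-9, a sugar-binding protein named as a ligand of TIM-3. Its level was 46.7 CPM in M7, 39.3 CPM in M8, 102 CPM in M9 and 62.9 CPM in M10. The groups did not overlap, but M10 lay closer to M7 than to M9. *Lgals9* rose by 0.94 ± 0.26 (adjusted p = 0.028), a call that was lost without M7 (1.07, adjusted p = 0.060), without M8 (0.82, adjusted p = 0.17) and with library size in place of TMM (0.43, adjusted p = 0.28). Beside it on chromosome 11, *Nos2*, the inducible nitric oxide synthase gene, lies 2719 bases away and rose by 2.50 (adjusted p = 0.0016), and *Ksr1* fell by 0.997 (adjusted p = 0.020, but 0.12 without M8). Among other galectins, *Lgals3* rose by 2.37 and *Lgals7* by 1.68, *Lgals4* fell by 2.33, and *Lgals1* and *Lgals8* (0.45 and 0.01) did not pass the threshold and *Lgals12* was too low to test. The calls of *Lgals4* (adjusted p = 0.055 and 0.18) and *Lgals7* (0.19 and 0.26) were lost without M7 and without M8, that of *Lgals7* also without M10 (0.078), where *Lgals1* passed (0.67, adjusted p = 0.015).

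*Sirpa* (ENSMUSG00000037902, chr2:129592835-129632228, plus strand) encodes SIRP alpha. It had the most counts of the 10 genes in M7, M9 and M10 (in M8 *Cd276* had more), at 71.7 CPM in M7, 48.0 CPM in M8, 623 CPM in M9 and 432 CPM in M10. The groups lay far apart, and the log2 fold change was 3.14 ± 0.29 (adjusted p = 0.0012). Its paralogs *Sirpb1a*, *Sirpb1b* and *Sirpb1c*, near copies on the outside of the cell that signal through an activating adaptor, rose by 4.13, 3.66 and 3.50. How reads shared among these genes were divided was not stated, so the split between *Sirpa* and its paralogs is uncertain.

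Levels were compared between genes as CPM per kilobase of exon. In the libraries labelled Syk WT the order of the group means was *Lgals9* (20.1), *Cd276* (16.6), *Sirpa* (12.2), *Vsir* (5.18), *Icosl* (3.86), *Cd274* (3.34), *Havcr2* (1.82), *Cd86* (1.65), *Cd80* (0.546) and *Pdcd1lg2* (0.256). Neighbours in this order overlapped between libraries for *Icosl* and *Cd274* and for *Havcr2* and *Cd86*. In those labelled Syk KO it was *Sirpa* (107), *Vsir* (53.4), *Lgals9* (38.7), *Cd274* (25.3), *Cd276* (16.5), *Cd86* (11.8), *Havcr2* (11.2), *Pdcd1lg2* (6.35), *Icosl* (6.26) and *Cd80* (6.13). There *Vsir*, *Lgals9*, *Cd274* and *Cd276* overlapped in sequence, as did *Cd86* and *Havcr2*, and the last 3 genes.

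As shares of the summed level of the 10 genes, which do not move with the scaling of a library, *Sirpa* took 20.8% in M7 and 16.0% in M8 and 38.4% in M9 and 37.3% in M10. *Vsir* took 7.77% and 8.05% against 17.9% and 20.2%. *Cd276* took 23.9% and 27.1% against 4.63% and 7.54%, and *Lgals9* took 31.1% and 30.1% against 14.5% and 12.5%. Most of the measured pool was thus *Lgals9* and *Cd276* in the libraries labelled Syk WT, and *Sirpa* and *Vsir* in those labelled Syk KO.

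Ratios between genes within a library were compared for 6 pairs, from counts per length with 0.5 added. *Cd86* stood at 0.561, 0.410, 0.438 and 0.526 of *Cd274* in M7 to M10, a log2 difference of 0.0011 between groups whose libraries overlapped (exact two-sided permutation p = 1, adjusted p = 1). *Cd80* stood at 0.257, 0.465, 0.457 and 0.617 of *Cd86*, also with overlap (exact p = 0.667, adjusted p = 0.8). With 2 libraries per group these ratios do not show that the genes moved alike.

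The ratio of *Havcr2* to *Lgals9* was 0.0917 and 0.0899 in M7 and M8 and 0.288 and 0.291 in M9 and M10, a 3.19-fold difference. That of *Sirpa* to its partner *Cd47* was 1.33 and 1.13 against 3.09 and 3.13, a 2.53-fold difference. *Cd276* stood at 4.50 and 5.57 times *Cd274* in M7 and M8 and at 0.457 and 1.03 times in M9 and M10, a log2 difference of -2.86. The ratio of *Cd274* to *Pdcd1lg2* was 57.2, 6.36, 5.91 and 2.44, where M8 and M9 nearly met. For these 4 pairs the groups did not overlap, and each had the smallest exact permutation p the design allows, 0.333 (adjusted p = 0.5 over the 6 pairs). These ratios, and the shares above, can still move with the mix of cells in a library, and that part was not tested.

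**Figure D2:**
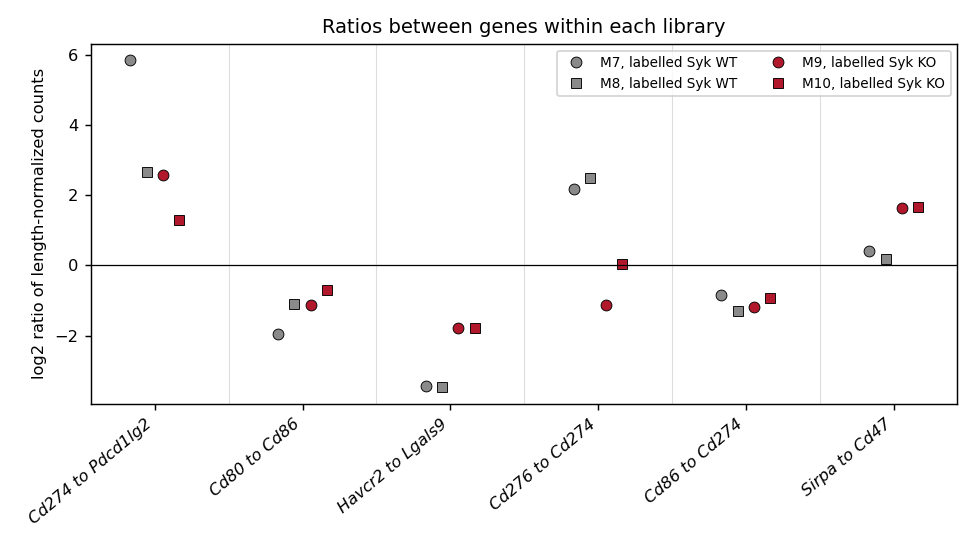
The log2 ratio of length-normalized counts for 6 pairs of genes, 1 point per library, with grey for libraries labelled Syk WT and red for those labelled Syk KO and a line at equal levels. The points of *Havcr2* to *Lgals9* and of *Sirpa* to *Cd47* lie higher in both red libraries, and those of *Cd86* to *Cd274* are mixed.

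The mean rise of the macrophage markers was then taken out by scaling each library to their geometric mean. With TMM the log2 fold changes of these markers ran from 0.57 (*Mertk*) to 3.57. On their own scaling 1 of the 10 markers was called lower, where 87.0% of all genes were. *Cd274* had 15.7 and 18.1 counts per 100 counts of the mean macrophage marker in M7 and M8 and 19.2 and 15.6 in M9 and M10. *Cd86* had 8.88 and 7.48 against 8.48 and 8.30, and *Havcr2* 6.33 and 7.55 against 5.95 and 5.84. *Sirpa* had 83.6 and 80.9 against 98.8 and 108, and *Vsir* 31.8 and 41.6 against 47.0 and 60.0. Relative to macrophage markers, *Cd274* and *Cd86* of the 2 groups thus overlapped. *Sirpa*, *Vsir*, *Cd80* and *Pdcd1lg2* lay above in M9 and M10, and *Havcr2*, *Cd276*, *Icosl* and *Lgals9* lay below. How many of all genes were separated in this way on this scaling was not counted.

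On this scaling 0 of the 10 genes were called higher (1 at an unadjusted p under 0.05, *Pdcd1lg2*), where 0.760% of all genes were. The highest value was that of *Pdcd1lg2*, a log2 fold change of 1.72 (adjusted p = 0.053). Values for *Cd80*, *Vsir*, *Sirpa*, *Cd274*, *Cd86* and *Havcr2* were 0.66, 0.54, 0.33, 0.04, 0.04 and -0.23, none past the threshold. *Cd276*, *Icosl* and *Lgals9* were called lower, at -2.78, -2.18 and -1.91, where 87.0% of all genes were called lower. The scaling moved the median of all genes to -2.78, so *Cd276* sat at the median of the table and the median of the 10 genes, 0.04, lay above it as it did with TMM.

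Scaled to 6 pan-leukocyte genes, of which 6 of 6 were higher with TMM at a median of 3.57, 0 of the 10 were called higher (0 at an unadjusted p under 0.05), where 0.334% of all genes were, and 4 were called lower, where 92.8% were. These were *Cd276* (-3.61), *Icosl* (-2.98), *Lgals9* (-2.72) and *Havcr2* (-1.04), and the median of all genes was -3.60. Values of *Pdcd1lg2*, *Cd80*, *Vsir*, *Sirpa*, *Cd274* and *Cd86* were 0.95, -0.16, -0.27, -0.49, -0.76 and -0.79, none past the threshold. DESeq2 was not run on either marker scaling. The part of cell content in the rises measured with TMM cannot be told apart from a change per cell.

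**Figure D3:**
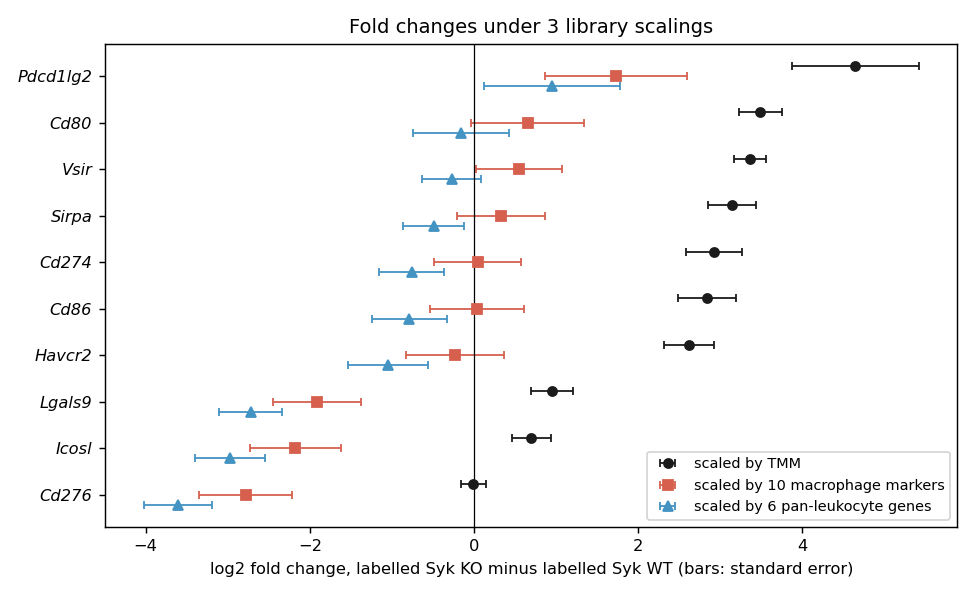
Log2 fold change of each gene, libraries labelled Syk KO minus those labelled Syk WT, with the standard error of edgeR's fit, under TMM (black circles), scaling to 10 macrophage markers (red squares) and scaling to 6 pan-leukocyte genes (blue triangles). *Cd276* has the lowest value on each scaling, and *Pdcd1lg2* the highest (4.64, 1.72 and 0.95).

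**Figure D4:**
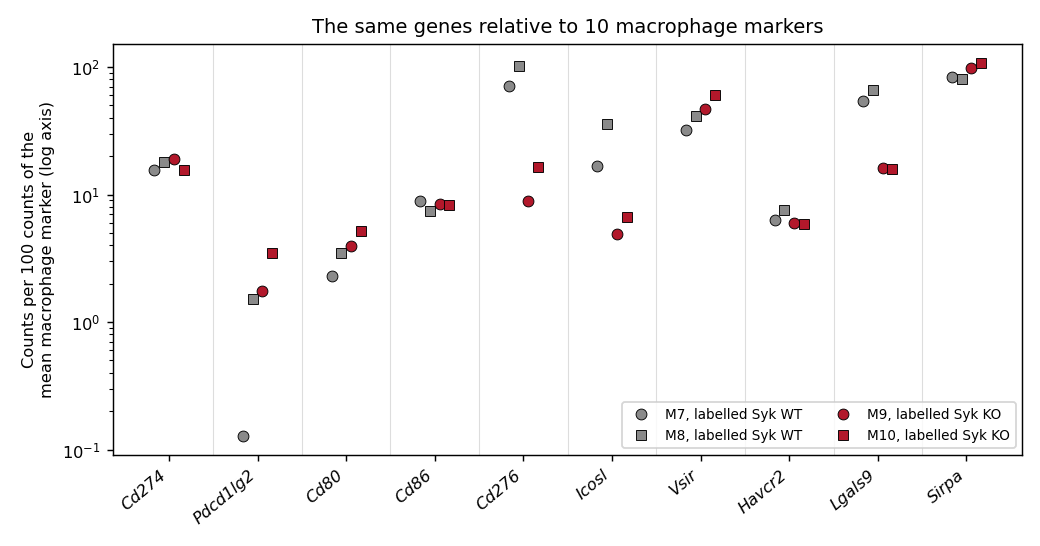
Counts of the 10 genes per 100 counts of the mean macrophage marker on a log axis, 1 point per library, with grey for libraries labelled Syk WT and red for those labelled Syk KO. *Cd276*, *Icosl* and *Lgals9* lie lower in both red libraries, and *Cd274* stays between 15.6 and 19.2 in all 4.

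Most dendritic cell, neutrophil and T cell markers tested were higher in the same libraries, whereas most B cell and NK cell markers tested were not called. Of all genes, 22.7% were called higher and 16.7% lower, the background for each count here. Of 8 dendritic cell markers 6 were higher, with a summed level of 22.4 and 17.6 CPM against 239 and 238 CPM. *Clec9a* and *Zbtb46* of that list did not pass the threshold. Of 6 T cell markers 4 were higher, their sum going from 9.33 and 4.52 CPM to 55.2 and 31.7 CPM, with *Cd8a* at 5, 14, 11 and 0 counts, and 1 was higher without M7 or without M8. All 5 neutrophil markers tested were higher, with *Ly6g* at 5 counts or fewer. Of 4 B cell markers tested 1 was higher (2 without M9), of 6 endothelial markers 3 were lower (1 without M7 or without M8), and the 1 NK cell marker tested was not called. The part of these cells in the levels of *Cd80*, *Cd86*, *Cd274*, *Pdcd1lg2* and *Havcr2* was not tested.

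The wider pathway held 48 genes in 4 lists, of which 47 were tested. Of these, 23 were higher and 5 were lower, where 22.7% and 16.7% of all genes were, and 19 did not pass the threshold. Their median log2 fold change was 1.19 (1.19 also with the 4 genes at or under 3 counts in every library of a group set to that floor), against 0.016 over all genes. Without M8 the number higher was 15 and the number lower was 0, and without M7 the number lower was 1. The shares of all genes, 22.7% higher and 16.7% lower, are also the background for the counts of each list below.

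Among receptors and counter-receptors, some of them partners of the 10 genes and others of further ligands, 10 of 14 tested were higher and 0 were lower by edgeR. *Pdcd1*, the gene of PD-1, had 7, 5, 27 and 45 counts (adjusted p = 0.018). *Cd28* had 8, 7, 102 and 62 counts (3.83, adjusted p = 0.0039). In every library *Cd28* had fewer counts than its ligands *Cd80* and *Cd86*. *Cd47*, which SIRP alpha binds, was at 68.7, 54.3, 258 and 176 CPM (1.82, adjusted p = 0.0029), and *Selplg*, the gene of a partner of VISTA at acid pH, rose by 3.62. *Igsf11*, another VISTA partner, had 2, 0, 13 and 21 counts and *Btla* 2, 3, 24 and 27, so that both were at or under the floor in M7 and M8. *Ctla4*, *Icos* and *Tigit* (1.31, 1.32 and 1.52) did not pass the threshold, nor did *Rgmb*, a partner of PD-L2 (-0.38). The remaining calls were *Ceacam1* and *Hmgb1*, both named as partners of TIM-3, at 8.01-fold and 1.70-fold higher, *Cd226* at a log2 fold change of 3.81 and *Lag3* at 1.30, while *Cd96* was too low to test. The calls of *Pdcd1* (adjusted p = 0.17 and 0.22), *Hmgb1* (0.104 and 0.232), *Lag3* (0.091 and 0.19), *Cd226* (0.094 and 0.059), *Igsf11* (0.13 and 0.32) and *Btla* (0.21 and 0.18) were lost without M7 and without M8.

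Of 13 other ligands of antigen-presenting or tumor cells, 3 were higher and 3 were lower, near the shares of all genes (22.7% and 16.7%). *Cd40*, *Cd48* and the adhesion molecule gene *Icam1* rose by 3.27, 3.05 and 3.10. *Pvr* and *Nectin2*, whose proteins bind TIGIT and CD226, fell by 0.57 and 0.61, and *Ildr2* was called lower at 20, 15, 1 and 0 counts. The other 7 of the 13 did not pass the threshold, from -2.13 for *Vtcn1* to 0.81 for *Icam2*. All 3 lower calls were lost without M7 and without M8, at an adjusted p of 0.22 and 0.22 for *Pvr*, 0.19 and 0.25 for *Nectin2* and 0.29 and 0.26 for *Ildr2*. *Vtcn1* passed without M9 (-3.99) or M10 (-1.36), and *Icam2* and *Tnfrsf14* without M10 (1.27 and 0.70).

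Interferon gamma induces PD-L1 through its receptor and JAK kinases, and 5 of the 12 genes of that list were higher and 1 was lower. The receptor genes *Ifngr1* and *Ifngr2* rose by 1.33 and 1.47, and *Irf8*, a myeloid regulator, by 3.04. *Irf1*, which acts on the PD-L1 gene, was at 58.0, 61.3, 63.0 and 71.7 CPM (0.17, adjusted p = 0.40), and *Jak1*, *Jak2*, *Stat3* and *Hif1a* (0.20, -0.28, -0.30 and 0.18) did not pass the threshold. *Cmtm6*, whose protein keeps PD-L1 on the cell surface, rose by 1.21, whereas its relative *Cmtm4* fell by 0.91, and *Spop*, which marks PD-L1 for degradation, had an adjusted p of 0.052 at 0.45. The call of *Cmtm4* was lost without M8 (-0.80, adjusted p = 0.087), and *Jak2* passed without M9 (-0.63) and *Spop* without M10 (0.48).

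Inside the cell, 5 of 8 signalling partners of SIRP alpha and TIM-3 were higher and 1 was lower. *Ptpn6*, the gene of the phosphatase SHP-1 that SIRP alpha recruits, was at 16.5, 16.6, 184 and 147 CPM (3.32, adjusted p = 0.00049). Its relative *Ptpn11*, the gene of SHP-2, was at 124, 109, 107 and 101 CPM (-0.16, adjusted p = 0.45). The 2 phosphatase genes thus had 3.32 and -0.16 in the same libraries. The adaptor genes *Fyb* and *Skap2* rose by 3.31 and 3.44, and *Fyn* by 0.69. *Bag6*, whose protein binds the tail of TIM-3, fell by 0.66, and *Lck* (0.17) did not pass the threshold. The calls of *Fyn* (adjusted p = 0.098 and 0.23) and *Bag6* (0.14 and 0.20) were lost without M7 and without M8.

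**Figure D5:**
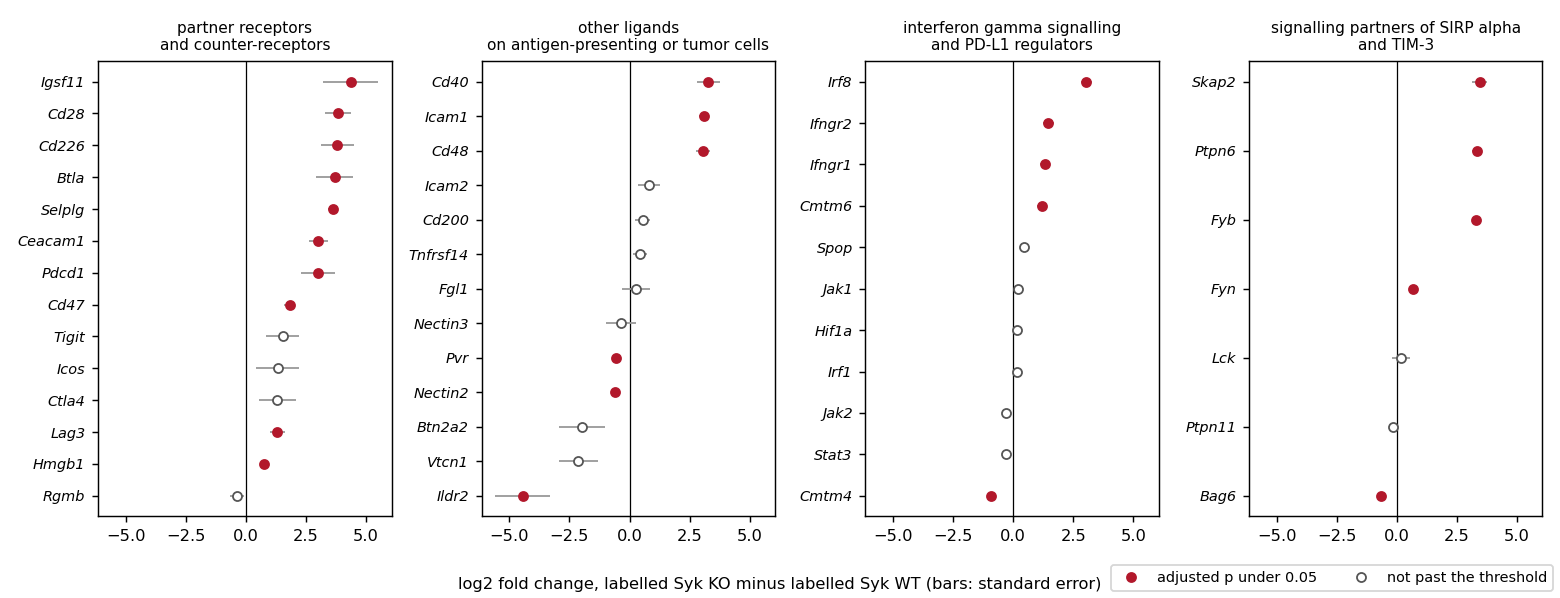
Log2 fold change of 45 of the 47 pathway genes tested, libraries labelled Syk KO minus those labelled Syk WT, in 4 panels by list, with the standard error of edgeR's fit as bars. Filled red points have an adjusted p under 0.05 and open points do not, and filled points lie on both sides of 0 in all panels but that of the partner receptors.

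For each of the 10 genes, the 2 genes with the most similar profile were named from the root mean square distance of centred log2 CPM over the 4 libraries, among 12933 protein-coding genes. *Havcr2* was nearest to *Fgl2* (a distance of 0.0029 on the log2 scale), *Cd276* to *Pml* (0.012) and *Lrrk1*, *Cd274* to *Ago4* (0.020), and *Sirpa* to *Cebpa* (0.022) and *Cybb*. *Cd86* was nearest to *Pik3cg* (0.026) and *Trim30c*, and *Vsir* and *Cd80* shared *Neurl3* (0.040 and 0.075) beside *Pik3ap1* and *Rhoh*. *Icosl* was nearest to *Tnfsfm13* (0.029) and *Epha2*, and *Lgals9* to *Gm49342* (0.027) and *Commd5*, with *Gm49339* second for *Cd274* and *Tmem106a* for *Havcr2*. *Pdcd1lg2* had no close match, its nearest genes *Fcrl5* and *Alox15* lying at 0.40 and 0.51. With 4 libraries these distances are a description.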

How the data were processed

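RNA of 4 libraries, 2 labelled Syk WT and 2 labelled Syk KO, was analysed from 1 deposited table of whole-number counts per Ensembl gene, which the authors made from reads aligned to mm10 without normalization. The submitters' processing notes name STAR 2.6.1d, Salmon 1.4.0, Picard 2.26, SAMtools 1.9 and MultiQC 1.11, and how whole numbers were made from estimates is not given in the sources used here. The paper's methods describe single reads in triplicate and the labels paired reads. The 10 genes and all lists were chosen with earlier results of these data known. Symbols and positions came from GENCODE M21 (54495 genes matched).

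Counts passed filterByExpr, were scaled by TMM (1.22, 1.19, 0.876 and 0.787 in M7 to M10) and compared by edgeR 4.0.16 in R 4.3.3 (glmQLFit, glmQLFTest) over 16451 genes. The TMM factors set the zero of each log2 fold change. SEs were derived from the F statistic. Named were the 10 genes, the pathway, paralog and marker lists, *Syk*, *Lyz2*, the nearest protein-coding gene on each side and the 2 genes of most similar profile with a mean of at least 1 CPM. Alternatives were DESeq2 1.42.0 (the paper's tool), other scalings and filters, and each library left out. Scripts were tested on simulated data. Replicates differed by more than sampling noise (chi-square per degree of freedom 55.8 and 185). Since separate animals per library are not stated, p-values measure only the spread between these libraries, which may be technical. *Lgals6* was not analysed here. A few list members are counted in their lists but not reported here by name.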

Additional observations from a re-analysis of the deposited data

How the results depend on the processing

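Scaling decided the calls. Scaling to 10 macrophage markers or to 6 pan-leukocyte genes left 0 and 0 of the 10 genes higher and 3 and 4 lower, and 0 and 0 pathway genes higher and 28 and 29 of 47 lower, where 87.0% and 92.8% of all genes were lower. Library size in place of TMM gave 1 of the 10 lower (*Cd276*, -0.55, adjusted p = 0.037, beside a median of -0.52 over all genes) and 9 pathway genes lower. Leaving out each library in turn gave 7 to 9 of the 10 higher, 15 to 26 pathway genes higher and 0 to 7 lower, and a further minimum of 1 on the size of the log2 fold change left 1 pathway gene lower. Of 119 fold changes recomputed for the 10 genes, 92 kept direction and call, 10 kept direction and lost the call, 5 kept direction and gained one, and 12 changed sign, of which 6 lost the call, 3 were called in the other direction, 2 gained a call and 1 was called in neither. Under pan-leukocyte scaling the changed signs were *Cd274* -0.76, *Cd80* -0.16, *Cd86* -0.79, *Icosl* -2.98, *Vsir* -0.27, *Havcr2* -1.04, *Lgals9* -2.72 and *Sirpa* -0.49, and under macrophage scaling *Icosl* -2.18, *Havcr2* -0.23 and *Lgals9* -1.91. With a library left out, *Cd276* ran from -0.11 (without M10) to 0.011 (without M9). The log2 ratio of *Cd86* to *Cd274* was -0.0011 with 1 count added, and from -0.23 to 0.23 with a library left out. The cause of changes beyond the scaling itself was not tested. *Pdcd1lg2* had no value with at least 10 counts required in every library. No paired analysis was possible because the labels give the groups no shared replicate numbers.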
